A study of Mus musculus with 4 samples.

Results

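The genes described here are 9 that mark or build dendritic cells, the leukocytes that carry antigen out of tissue and present it to T cells. They were chosen by name, as the rows of the deposited expression table for Batf3, Clec9a, Xcr1, Flt3, Zbtb46, Itgae, Cd209a, Irf4 and Irf8, and all 9 were found among the 17691 named genes of the table. The table gives FPKM, fragment numbers scaled to transcript length and library depth. Levels can be compared roughly between genes and between libraries, although a change in a few abundant genes can move all others. Lung RNA came from wild-type C57BL/6 mice aged 6 to 8 weeks, which were given either Bleomycin, a DNA-breaking drug that injures the lung and leads to scarring, or the buffer PBS. Both were given intranasally, with a stated time of 10 days. Each group has 2 libraries here, although the design text speaks of 3 replicates and the treatment protocol of 4 groups. The labels do not say whether the libraries came from separate mice or from pools, so p-values measure only the spread between these libraries, which may be technical.

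Conventional dendritic cells fall into 2 lineages, cDC1 and cDC2. cDC1 need the transcription factors BATF3 and IRF8. They carry XCR1, a chemokine receptor, and CLEC9A, a receptor for the actin exposed by dead cells, and in lung they also carry the integrin CD103, the product of Itgae. cDC2 depend in part on IRF4, and in mice many of them, like monocyte-derived dendritic cells, express the lectin CD209A. Both lineages grow under the cytokine FLT3L, which acts through the receptor FLT3, and among mature leukocytes the factor ZBTB46 marks them. Most of these genes are not private to dendritic cells. IRF8 is made by macrophages and B cells, IRF4 by B, plasma and T cells, CD103 by some CD8 and regulatory T cells, BATF3 by some activated T cells, and ZBTB46 by endothelium.

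The promoters of 4 members are shown because they carry the contrast or the motif matches described here: Batf3, the 1 member that rose, Clec9a, which was lower in both bleomycin libraries, and Zbtb46 and Cd209a, the only members whose promoter held a match. Each runs from 250 bases before to 50 bases after the RefSeq start site (GRCm38.p6), 5′ to 3′ on the gene's own strand, in lower case with motif matches in capitals. Batf3 is at chr1:191098164-191098463 (plus strand), Clec9a at chr6:129408612-129408911 (plus), Zbtb46 at chr2:181424339-181424638 (minus; a start inside the gene, which reaches further upstream) and Cd209a at chr8:3748935-3749234 (minus).
Batf3: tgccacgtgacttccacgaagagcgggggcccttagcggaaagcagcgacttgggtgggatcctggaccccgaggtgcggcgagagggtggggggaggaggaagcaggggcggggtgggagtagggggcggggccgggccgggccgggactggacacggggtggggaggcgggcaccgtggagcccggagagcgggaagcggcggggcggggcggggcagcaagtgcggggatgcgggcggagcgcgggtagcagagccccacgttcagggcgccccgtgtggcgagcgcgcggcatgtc
Clec9a: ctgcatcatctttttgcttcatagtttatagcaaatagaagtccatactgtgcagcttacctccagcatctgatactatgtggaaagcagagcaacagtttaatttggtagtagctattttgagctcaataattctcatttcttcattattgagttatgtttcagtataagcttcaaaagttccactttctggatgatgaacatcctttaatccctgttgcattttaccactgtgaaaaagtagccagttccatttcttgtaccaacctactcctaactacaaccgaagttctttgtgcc
Zbtb46: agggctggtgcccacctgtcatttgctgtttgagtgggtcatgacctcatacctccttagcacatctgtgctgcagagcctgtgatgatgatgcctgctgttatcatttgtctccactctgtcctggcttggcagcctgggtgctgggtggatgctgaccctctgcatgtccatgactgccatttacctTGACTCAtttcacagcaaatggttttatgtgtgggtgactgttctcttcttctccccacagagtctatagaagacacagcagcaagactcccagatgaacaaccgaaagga
Cd209a: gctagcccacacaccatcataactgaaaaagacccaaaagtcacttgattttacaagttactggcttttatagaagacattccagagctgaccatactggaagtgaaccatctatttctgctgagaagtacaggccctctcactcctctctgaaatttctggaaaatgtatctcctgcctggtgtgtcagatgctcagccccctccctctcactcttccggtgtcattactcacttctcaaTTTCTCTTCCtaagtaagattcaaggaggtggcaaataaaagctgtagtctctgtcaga

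Promoter sequence was at hand for 8 of the 9 members. Those of Batf3 and Clec9a, both genes of the cDC1 lineage, differ widely in base composition. Batf3 has 75.7% G and C and 34 CpG pairs, above 96.7% of all 32851 promoters in GC content, and Clec9a has 37% and 1 CpG pair, above 5.78% of them. The median over all promoters is 52.7% with 7 CpG pairs. The AP-1 element TGANTCA, a site type bound by JUN with FOS or BATF proteins, was searched on both strands, as were the others, and found in Zbtb46, from -61 to -55 bases relative to the start base, and in 7.81% of all promoters. The ETS-IRF composite element GGAANNGAAA, bound by PU.1 with IRF4 or IRF8, was found on the opposite strand in Cd209a, where it reaches the start base, and in 2.72% of all promoters. The interferon-stimulated response element GAAANNGAAA, which differs from the composite element in 1 letter, is in 3.44% of all promoters and in none of the members' windows. These matches describe letters only.

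The libraries themselves come first. Depth was estimated at 17.0 to 17.8 M fragments (M, mega), and the lung markers Sftpc, Scgb1a1 and Ager were each at 1883.14 FPKM or more in all 4. Bleomycin replicate 2 stood apart from replicate 1 in leukocyte genes. Each member is therefore given per library, and its log2 change also with either bleomycin library left out. Members were called in both directions in those fits, where the remaining bleomycin library is assumed to vary as the PBS pair did. The groups differed in sex-linked transcripts, with Eif2s3y listed at 0 in both bleomycin libraries and at 26.43 and 28.86 FPKM with PBS. Sex of the mice and treatment therefore cannot be told apart in any difference given here.

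Levels differed widely between members. With bleomycin the order of mean FPKM was Irf8 (20.8), Clec9a (9.65), Batf3 (9.23), Zbtb46 (5.71), Cd209a (4.17), Itgae (2.71), Flt3 (1.69), Irf4 (1.25) and Xcr1 (0.91). With PBS it was Irf8 (20.5), Clec9a (18.1), Cd209a (8.32), Zbtb46 (7.87), Batf3 (2.53), Itgae (2.31), Irf4 (1.61), Flt3 (1.58) and Xcr1 (1.24). Batf3 stood beside Clec9a with bleomycin and beside Itgae with PBS. With bleomycin the library values of each pair of neighbours in this order overlapped, except Irf8 with Clec9a and Batf3 with Zbtb46. With PBS only Cd209a with Zbtb46 and Batf3 with Itgae overlapped. The order of overlapping neighbours is not settled by 2 libraries.

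**Figure D1:**
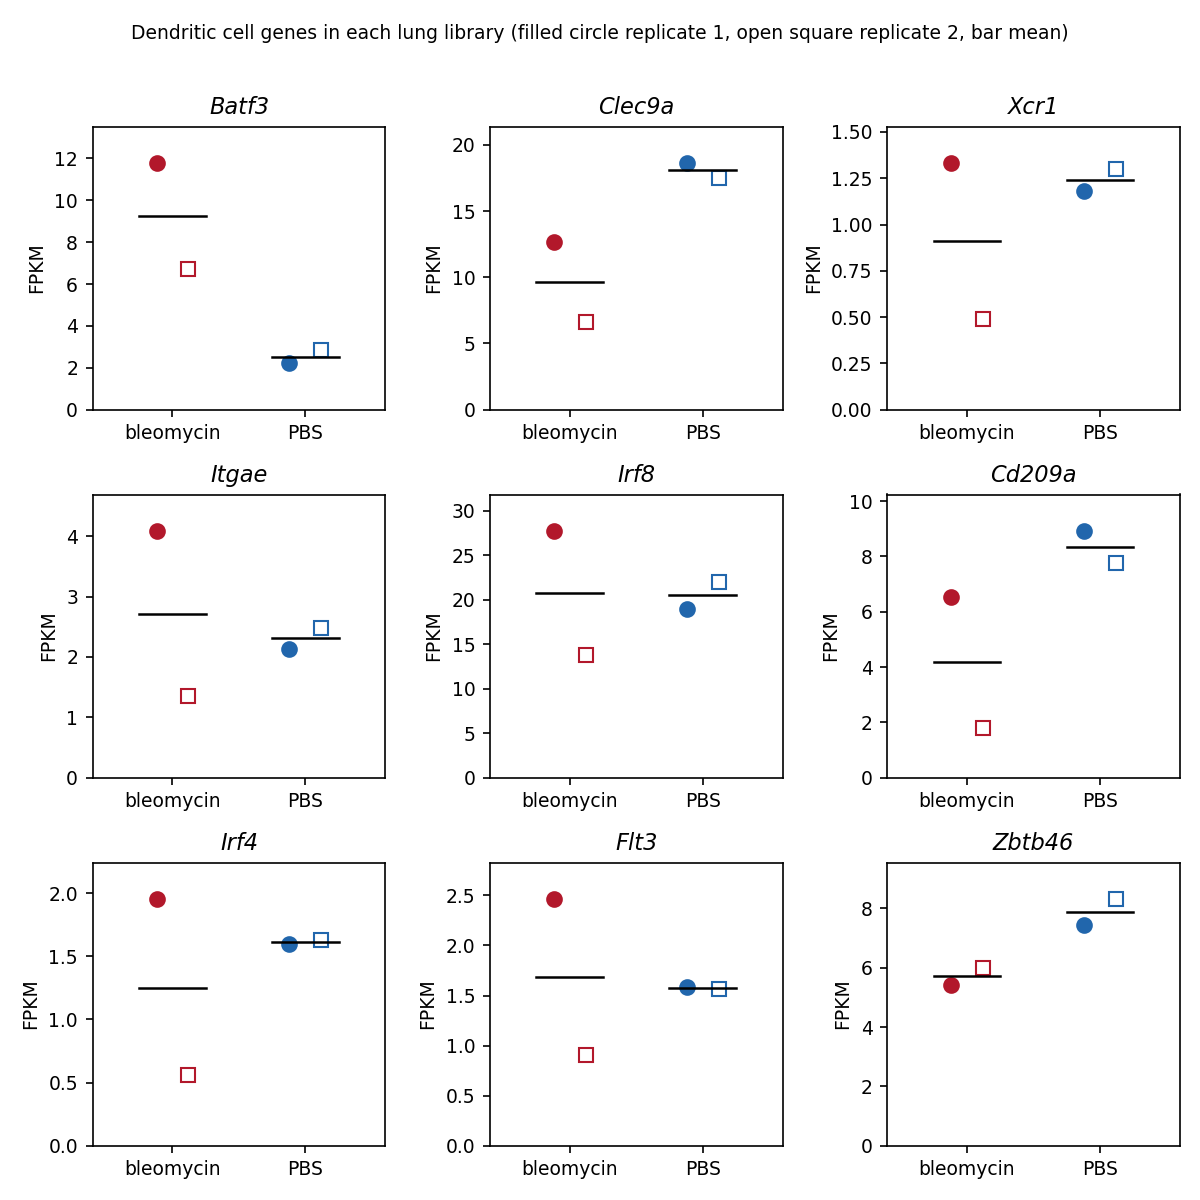
FPKM of each of the 9 dendritic cell genes in each library, bleomycin left and PBS right; filled circles are replicate 1, open squares replicate 2 and bars group means (n = 2). Batf3 lies above both PBS values in both bleomycin libraries (11.76 and 6.7 against 2.22 and 2.84), and for 5 genes the PBS pair lies between the bleomycin libraries.

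The comparison of bleomycin with PBS asks how the treatment moved these transcripts. Batf3 rose, and no member fell. All 9 members averaged at least 1 FPKM and were tested, with limma and a threshold of 0.05 on the adjusted p, and 1 was called higher, 0 lower and 8 neither. Over all 12986 genes tested, 8.59% rose and 7.69% fell, so a count of 1 among 9 is near the background. At an unadjusted p under 0.05 by limma, 2 members were lower, Clec9a and Zbtb46. Over all 12986 genes tested 2349 were lower at that threshold, so 2 among 9 is also near the background. The members' median log2 change was -0.27, against -0.02 over all tested genes. In bulk lung RNA, fewer cells of a type and less RNA per cell cannot be told apart.

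Batf3, a small leucine zipper factor that pairs with JUN and stabilises IRF8 in the cDC1 lineage (gene 381319, GRCm38.p6 chromosome 1, 191098414 to 191108943), was at 11.76 and 6.7 FPKM with bleomycin, against 2.22 and 2.84 FPKM with PBS. Both bleomycin libraries were above both PBS libraries. The mean was 9.23 ± 3.58 FPKM with bleomycin and 2.53 ± 0.438 FPKM with PBS (SD, n = 2 each), a 3.65-fold difference. On the log2(FPKM + 1) scale Batf3 rose by 1.50 ± 0.27 (SE, limma adjusted p = 0.029), the largest change among the members and the 182nd largest rise of all tested genes. Behind these values stand about 163 and 96 fragments with bleomycin (95% Poisson intervals 139 to 190 and 77.8 to 117), against 30 and 39 with PBS (20.2 to 42.8 and 27.7 to 53.3). The fragment numbers are estimates from the depth and cover counting error only. The call did not hold in a fit without the filter on low genes (limma adjusted p = 0.0647) or without either PBS library (0.241 and 0.217).

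Clec9a encodes the dead-cell receptor of cDC1 (gene 232414, chromosome 6, 129408862 to 129424764). It was at 12.69 and 6.62 FPKM with bleomycin and 18.6 and 17.5 FPKM with PBS. Both bleomycin libraries were below both PBS libraries, with means of 9.65 ± 4.29 and 18.1 ± 0.778 FPKM (bleomycin and PBS, SD, n = 2 each). The log2 change was -0.90 ± 0.29 (limma adjusted p = 0.1). The change was -1.32 ± 0.10 without bleomycin replicate 1 and -0.48 ± 0.09 without bleomycin replicate 2. In those fits the remaining bleomycin library is assumed to vary as the PBS pair did. Exons of Clec9a share 184 of 3293 bases with exons of Clec1b, a platelet lectin gene on the same strand, and fragments there cannot be assigned. Clec1b was at 3.07 and 2.23 FPKM with bleomycin and 7.82 and 15.97 FPKM with PBS, lower in both bleomycin libraries as Clec9a was. Its part in the Clec9a values was not tested.

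The remaining cDC1 genes lay on both sides of PBS. Xcr1, the receptor for the chemokine XCL1 (gene 23832, chromosome 9, 123852315 to 123862029), was at 1.33 and 0.49 FPKM with bleomycin and 1.18 and 1.3 FPKM with PBS. Replicate 1 of bleomycin was the highest of the 4 libraries and replicate 2 the lowest, and the log2 change was -0.27 ± 0.25 (limma adjusted p = 0.493). The lowest Xcr1 value rests on about 39 fragments (27.7 to 53.3) and the highest on 102 (83.2 to 124).

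Itgae, the CD103 subunit that binds E-cadherin together with the product of Itgb7 (gene 16407, chromosome 11, 73090505 to 73147449), was at 4.08 and 1.35 FPKM with bleomycin and 2.14 and 2.48 FPKM with PBS. The bleomycin libraries again enclosed the PBS pair, and the log2 change was 0.06 ± 0.38 (limma adjusted p = 0.92). Irf8, the factor that fixes cDC1 identity and the most abundant member (gene 15900, chromosome 8, 120736358 to 120756694), was at 27.67 and 13.84 FPKM with bleomycin and 18.99 and 21.99 FPKM with PBS. Its group means were 20.8 ± 9.78 and 20.5 ± 2.12 FPKM (bleomycin and PBS, SD, n = 2 each), with a log2 change of -0.06 ± 0.32 (limma adjusted p = 0.917).

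Among the cDC2 genes, Cd209a, a C-type lectin of the DC-SIGN family (gene 170786, chromosome 8, 3743395 to 3748984), was at 6.54 and 1.79 FPKM with bleomycin and 8.9 and 7.75 FPKM with PBS. It was lower in both bleomycin libraries than in either PBS library, but the bleomycin libraries differed 3.65-fold from each other, and the log2 change of -1.02 ± 0.48 did not pass (limma adjusted p = 0.202). Without bleomycin replicate 1 the change was -1.74 ± 0.13, and without replicate 2 it was -0.30 ± 0.12. Estimated fragments were 168 and 47 with bleomycin, against 224 and 198 with PBS. Irf4, the IRF family factor of cDC2 (gene 16364, chromosome 13, 30749233 to 30766981), was at 1.95 and 0.56 FPKM with bleomycin and 1.6 and 1.63 FPKM with PBS. The bleomycin libraries enclosed the PBS pair, with a log2 change of -0.29 ± 0.33 (limma adjusted p = 0.569).

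Flt3, the growth factor receptor of dendritic cells and their precursors (gene 14255, chromosome 5, 147330741 to 147400489), was at 2.46 and 0.91 FPKM with bleomycin and 1.59 and 1.57 FPKM with PBS. The PBS libraries hardly differed, the bleomycin libraries lay on either side of them, and the log2 change was -0.01 ± 0.31 (limma adjusted p = 0.993). Zbtb46, a zinc finger repressor (gene 72147, chromosome 2, 181371009 to 181493262), was at 5.41 and 6 FPKM with bleomycin and 7.43 and 8.3 FPKM with PBS. Both bleomycin libraries were lower, by a log2 change of -0.40 ± 0.11 that did not pass (limma adjusted p = 0.0736). The change was -0.34 ± 0.12 without bleomycin replicate 1 and -0.47 ± 0.12 without bleomycin replicate 2. Endothelial markers were lower in the same libraries. Their summed level was 1380 and 1275 FPKM with bleomycin and 1811 and 1929 FPKM with PBS, with 4 of 10 fallen, 0 risen (0 also at an unadjusted p under 0.05 by limma) and none at 0. Without the filter on low genes 3 of the 4, Kdr, Egfl7 and Eng, did not pass (limma adjusted p = 0.0613, 0.0596 and 0.0592). Their part in the Zbtb46 values was not tested.

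**Figure D2:**
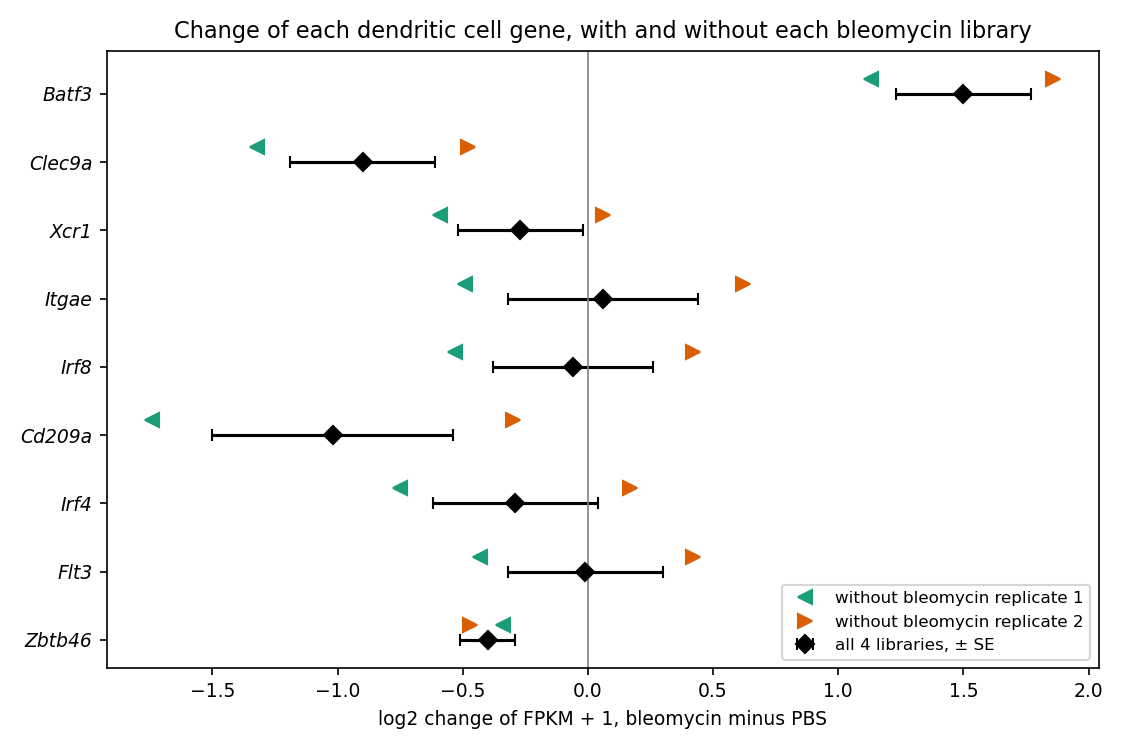
Log2 change of FPKM + 1, bleomycin minus PBS, for each dendritic cell gene; black diamonds with bars are the fit of all 4 libraries ± SE, and triangles are the fits that leave out a bleomycin library. Batf3 stays to the right of 0 in all 3 fits (1.50, 1.13 and 1.86), Clec9a, Cd209a and Zbtb46 stay to the left, and 5 genes change side.

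The bleomycin libraries stood apart from each other in these genes. Replicate 2 was lower than replicate 1 in 8 of 9 members, by 1.76-fold for Batf3 to 3.65-fold for Cd209a, and Zbtb46 was the exception with 1.11 times the replicate 1 value. The median absolute log2 difference within the bleomycin pair was 0.86 over the members and 0.16 over all tested genes. Within the PBS pair it was 0.14 over the members and 0.09 over all tested genes. Cd209a and Itgae differed so much that 1.05% and 2.15% of all tested genes had a wider gap in the bleomycin pair. Of all tested genes, 62.3% were lower in replicate 2 than in replicate 1.

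The direction of several members turned on this split. Without bleomycin replicate 2, the log2 change was 0.62 for Itgae, 0.42 for Irf8, 0.42 for Flt3, 0.17 for Irf4 and 0.06 for Xcr1. Without bleomycin replicate 1 it was -0.49 for Itgae, -0.53 for Irf8, -0.43 for Flt3, -0.75 for Irf4 and -0.59 for Xcr1. Batf3 was higher in both fits, and Clec9a, Cd209a and Zbtb46 were lower in both. Of the members, 4 separated the groups without overlap, 1 above and 3 below PBS, against 66.5% of all tested genes.

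Several other leukocyte lists split the same way, and some less so. The pan-leukocyte transcript Ptprc, which encodes CD45, was at 24.17 and 11.97 FPKM with bleomycin and 18.93 and 17.27 FPKM with PBS. The median log2 difference, replicate 2 minus replicate 1 of bleomycin, was -0.88 over 5 pan-leukocyte genes, -1.02 over 10 T cell genes, -1.31 over 10 B and plasma cell genes and -1.52 over 4 tested NK cell genes. It was -0.51 over 12 monocyte and macrophage genes, -0.28 over 6 neutrophil genes, -0.23 over 8 alveolar macrophage genes, -0.30 over 10 endothelial genes, 0.07 over 9 lung epithelial genes and -0.07 over all tested genes. The alveolar macrophage sum ran the other way, with 578 and 1296 FPKM in the bleomycin libraries and 586 and 701 FPKM in the PBS libraries. Even so, 6 of the 8 genes were lower in bleomycin replicate 2. Most of that sum was Chil3, named after its values were seen, at 315.57 and 1049.99 FPKM with bleomycin and 306.75 and 392.15 FPKM with PBS. MHC class II genes, whose products dendritic cells use to present peptides, differed by -1.23, with H2-Ab1 at 639.69 and 200.47 FPKM with bleomycin and 329.22 and 336.44 FPKM with PBS.

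**Figure D3:**
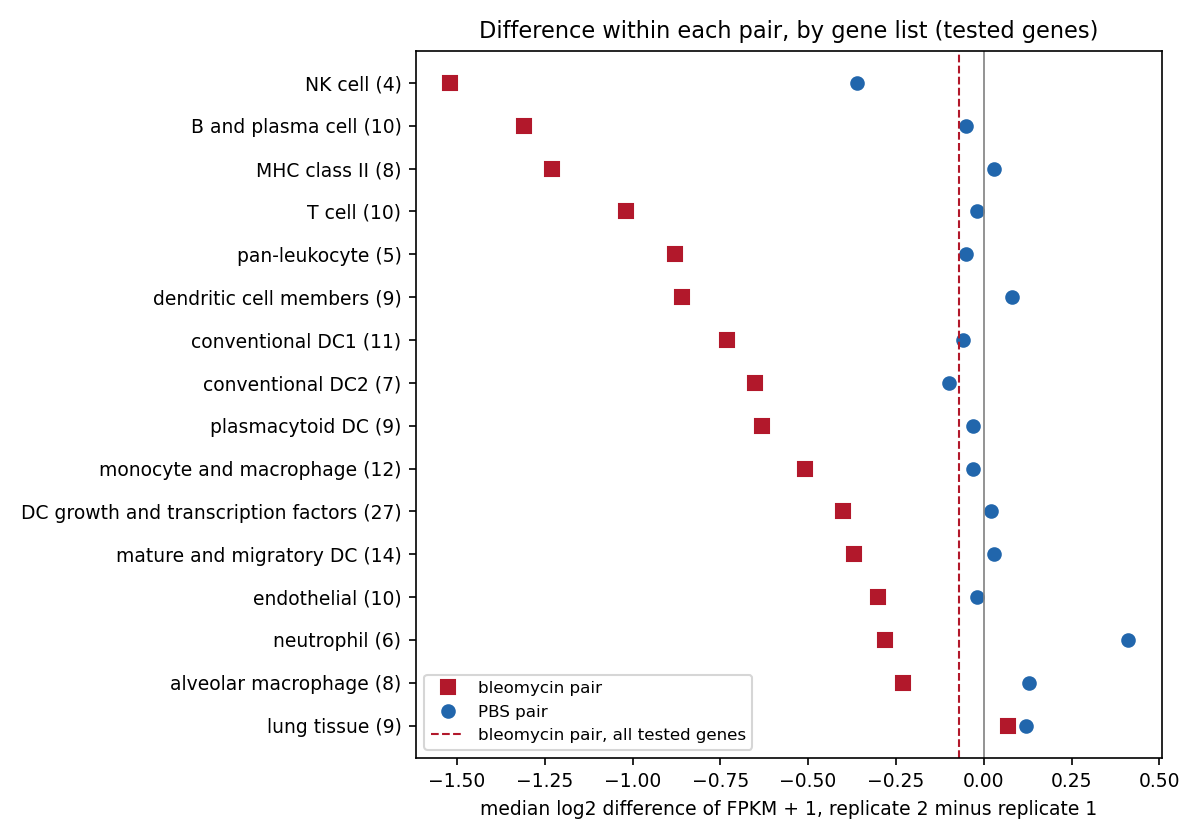
Median log2 difference of FPKM + 1 between replicate 2 and replicate 1 for each gene list (number of tested genes in brackets), red squares for the bleomycin pair and blue circles for the PBS pair; the dashed line is the bleomycin pair over all tested genes (-0.07). The dendritic cell members (-0.86) lie next to the pan-leukocyte genes (-0.88), and the PBS pair differs little in both.

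A ratio to Ptprc in the same library does not depend on the library's scaling, but it does depend on the gene divided by. Ptprc averaged 18.1 FPKM in both groups, while the median log2 change of the 5 pan-leukocyte genes was 0.65, with 3 above PBS in both bleomycin libraries, among them Laptm5 at 204.52 and 137.32 FPKM with bleomycin and 100.49 and 96.73 FPKM with PBS. On this ratio the bleomycin libraries were close for Batf3, at 0.487 and 0.56, against 0.117 and 0.164 with PBS. They were as close for Clec9a, at 0.525 and 0.553, against 0.983 and 1.01 with PBS. Cd209a was at 0.271 and 0.15 with bleomycin and 0.47 and 0.449 with PBS, below PBS in both libraries. For these 3 genes and for Xcr1 and Irf4, which were below PBS, the groups did not overlap, and the exact permutation test (two-sided, 2 against 2) gave 0.333, the smallest p this design allows. Irf8 per Ptprc was 1.14 and 1.16 with bleomycin and 1 and 1.27 with PBS, and Flt3, Itgae and Zbtb46 overlapped as well. Divided by each of the 4 other pan-leukocyte genes, a choice made after the values were seen, Batf3 stayed above PBS and Clec9a, Xcr1, Cd209a and Irf4 below it without overlap. Undivided, Xcr1 and Irf4 overlapped PBS, and 66.5% of all tested genes separated the groups. The share of all genes that separate the groups after division was not computed. Irf8, Flt3, Itgae and Zbtb46 overlapped with Coro1a as the divisor but were below PBS in both bleomycin libraries with Laptm5, Cd52 or Cd53. Irf8 per Laptm5, for example, was 0.135 and 0.101 with bleomycin and 0.189 and 0.227 with PBS. Laptm5, Cd52 and Cd53 were themselves above PBS in both bleomycin libraries, which lowers any ratio to them there.

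**Figure D4:**
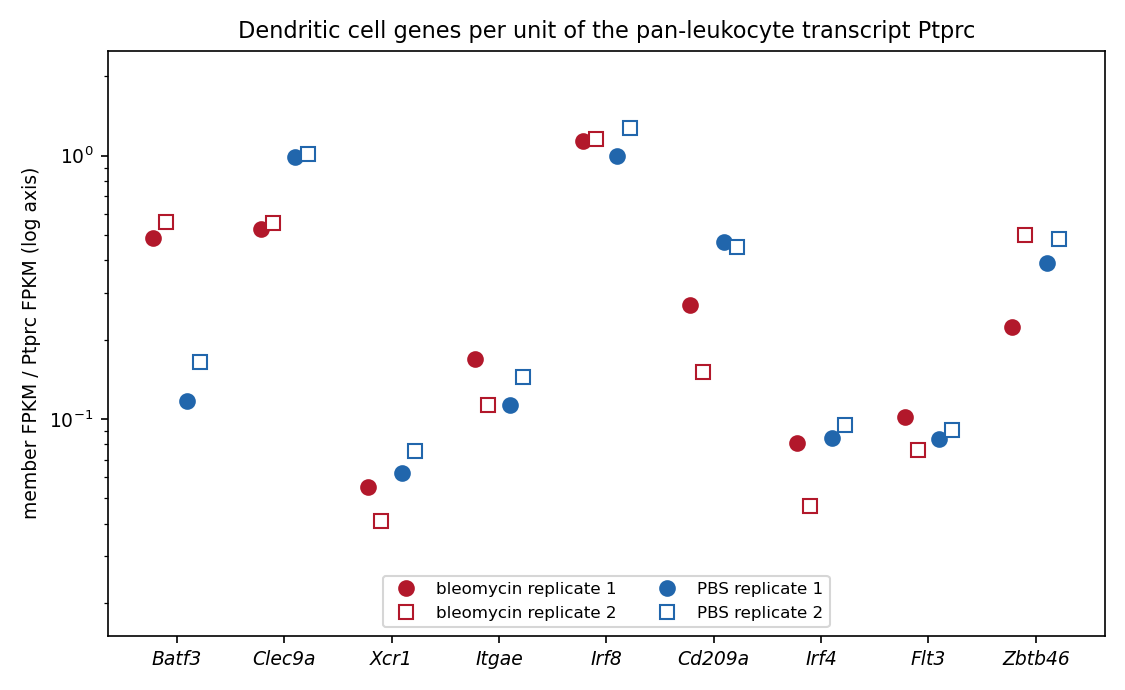
FPKM of each dendritic cell gene divided by Ptprc FPKM of the same library, on a log axis; red marks are bleomycin and blue marks PBS, filled circles replicate 1 and open squares replicate 2. Batf3 is above PBS and Clec9a and Cd209a below it in both bleomycin libraries, while Irf8 lies at 1 to 1.27 in all 4; with Laptm5, Cd52 or Cd53 as the divisor Irf8 is below PBS.

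The ratio of Batf3 to Clec9a, chosen after the values were seen, was 0.927 and 1.01 with bleomycin and 0.119 and 0.162 with PBS, a 6.88-fold difference of means. Batf3 was thus near the level of Clec9a with bleomycin and well below it with PBS. The ratio of Irf8 to Irf4 was 14.2 and 24.7 with bleomycin and 11.9 and 13.5 with PBS (exact permutation p = 0.333), higher in both bleomycin libraries but 1.53-fold on average. A sum of 6 cDC1 genes (Batf3, Clec9a, Xcr1, Gcsam, Wdfy4 and Snx22) was divided by a sum of 4 cDC2 genes (Cd209a, Clec10a, Mgl2 and Clec4a4). The ratio was 0.76 and 1.24 with bleomycin and 1.03 and 1.16 with PBS. The bleomycin libraries enclosed the PBS pair on that ratio (exact permutation p = 1). Other cells also make some of these genes, such as Batf3 and Clec10a. The cDC1 sum joins Batf3, above PBS in both bleomycin libraries, with Clec9a, below PBS in both, and these offset each other. The ratio therefore does not settle the balance of the lineages. Most of the cDC2 sum was Mgl2, at 36.42 and 10.83 FPKM with bleomycin and 20.26 and 18.8 FPKM with PBS.

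Of the ligands and partners of the members, Flt3l changed most. FLT3L, the cytokine that drives dendritic cell growth (gene 14256, chromosome 7, 45131183 to 45136490), had its transcript at 12.99 and 11.41 FPKM with bleomycin and 31.6 and 34.11 FPKM with PBS. Both bleomycin libraries were below PBS and close to each other, unlike Flt3 itself. Flt3l fell by 1.36 ± 0.10 on the log2 scale (limma adjusted p = 0.00621), or to 12.2 ± 1.12 FPKM with bleomycin, against 32.9 ± 1.77 FPKM with PBS (SD, n = 2 each). Exons of Flt3l share 856 of 3878 bases with Gm45713, a predicted gene on the same strand. Without either PBS library Flt3l did not pass (limma adjusted p = 0.145 and 0.154).

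Xcl1, the ligand of XCR1, was at 1.75 and 0.12 FPKM with bleomycin and 0.83 and 1.41 FPKM with PBS, enclosing PBS as Xcr1 did. Itgb7, the partner chain of CD103, was at 9.39 and 3.81 FPKM with bleomycin and 10.36 and 11.57 FPKM with PBS (limma adjusted p = 0.222). Cdh1, which encodes E-cadherin, was at 81.88 and 82.8 FPKM with bleomycin and 67.19 and 60.42 FPKM with PBS (limma adjusted p = 0.057). Spi1, which encodes PU.1, the partner of IRF4 and IRF8, was at 43.13 and 29.89 FPKM with bleomycin and 19.4 and 21.95 FPKM with PBS (limma adjusted p = 0.0584). Of the 10 ligands and partners 0 rose, 1 fell and 9 did not pass. At an unadjusted p under 0.05 by limma 4 were higher and 2 lower, Flt3l and Jun. Jun was at 64.34 and 61.96 FPKM with bleomycin and 76.19 and 81.05 FPKM with PBS (limma adjusted p = 0.0662).

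The growth and transcription factor list held 27 genes, 5 of them members, of which 4 rose, 2 fell and 21 did not pass, with a median log2 change of -0.03. Nfil3, a bZIP factor needed early in cDC1 development, rose by 1.42 ± 0.15 (limma adjusted p = 0.0113), with 8.86 and 11.71 FPKM with bleomycin and 3.05 and 3.31 FPKM with PBS. Batf, the close relative that can stand in for BATF3, rose by 0.82 ± 0.13 (limma adjusted p = 0.0234), with 11.22 and 8.94 FPKM with bleomycin and 5.31 and 5.18 FPKM with PBS. Stat3, which acts below the FLT3 receptor, rose by 0.59 ± 0.08 (limma adjusted p = 0.0171). Stat5b, another STAT factor and with Flt3l the other gene of the list that fell, was at 12.21 and 11.65 FPKM with bleomycin and 16.83 and 17.09 FPKM with PBS (-0.47 ± 0.08, limma adjusted p = 0.0273), and is named after its values were seen. The Batf call did not hold without the filter on low genes. All 4 are also made outside dendritic cells.

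In the IRF and BATF families, 2 of 12 genes rose, Batf3 and Batf, 0 fell and 10 did not pass. At an unadjusted p under 0.05 by limma 2 of the 12 were lower, Irf1 and Irf3. Batf2 was at 4.67 and 2.28 FPKM with bleomycin and 3.86 and 4.39 FPKM with PBS, and was not called. Whether it differs from Batf3 and Batf in its change was not tested. Irf1, the most abundant of the family, was at 59.91 and 42.64 FPKM with bleomycin and 71.43 and 79.65 FPKM with PBS (limma adjusted p = 0.0986). Irf7 was at 43.04 and 10.95 FPKM with bleomycin and 12.96 and 16.16 FPKM with PBS, the same enclosing pattern as Irf4 and Irf8. In the DC-SIGN family 2 of 7 genes passed the filter, Cd209a and Cd209c. Cd209c was at 6.7 and 5.4 FPKM with bleomycin and 6.65 and 6.05 FPKM with PBS, and these related genes may share fragments.

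Wider dendritic cell lists held few called genes. Of 11 tested cDC1 genes, 5 of them members, 1 rose (Batf3), 1 fell (2 were lower at an unadjusted p under 0.05 by limma) and 9 did not pass, with a median log2 change of -0.07. The gene that fell was Cadm1, an adhesion molecule also made by epithelium, by 0.43 ± 0.08 on the log2 scale (limma adjusted p = 0.0351), a call lost when values were rescaled to TPM or to the upper quartile, without a trend in eBayes and with the replicate block (limma adjusted p of 0.052 to 0.0717). Of 7 tested cDC2 genes 1 rose, 0 fell and 6 did not pass, and at an unadjusted p under 0.05 by limma 3 were higher and 0 lower. The gene that rose was Clec10a, a galactose lectin that macrophages also make, at 6.53 and 6.77 FPKM with bleomycin and 3.56 and 3.05 FPKM with PBS (0.83 ± 0.11, limma adjusted p = 0.0171), in contrast to Cd209a. Of 9 tested plasmacytoid dendritic cell genes limma called 0 higher and 0 lower, and none had an unadjusted p under 0.05. Siglech, a marker of those cells that is named after its values were seen, was too low to be tested, with 0.76 and 0.25 FPKM in the bleomycin libraries and 0.73 and 1.27 FPKM in the PBS libraries.

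Some genes of mature, migrating dendritic cells rose. Of 14 tested 4 rose, 0 fell (2 were lower at an unadjusted p under 0.05 by limma) and 10 did not pass, with a median log2 change of 0.30. Fscn1, an actin-bundling protein of mature dendritic cells that fibroblasts and epithelium also make, rose by 1.68 ± 0.09 (limma adjusted p = 0.00458), at 48.51 and 47.39 FPKM with bleomycin and 14.95 and 13.61 FPKM with PBS. Relb rose by 0.82 ± 0.12, Cacnb3 by 0.85 ± 0.08 and Cd80, a costimulator of T cells, by 0.74 ± 0.13 (limma adjusted p = 0.0192, 0.00867 and 0.0294). The Cd80 call was lost with the replicate block (limma adjusted p = 0.0584). Ccr7, the receptor that takes dendritic cells to lymph nodes, also named after its values were seen, was at 13.07 and 3.42 FPKM with bleomycin and 6.56 and 6.38 FPKM with PBS, the split seen for Irf4 and Flt3.

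Markers of other cells that make the members' transcripts were read beside them. Of 12 monocyte and macrophage genes 6 rose, 0 fell (1 was lower at an unadjusted p under 0.05 by limma) and none was at 0, with a summed level of 346 and 224 FPKM with bleomycin and 166 and 168 FPKM with PBS. Cd68, a lysosomal protein of macrophages, also rose (1.50 ± 0.23, limma adjusted p = 0.0202), beside 1.50 for Batf3. Among the 6, Fcgr1 and Adgre1 did not pass without the filter on low genes (limma adjusted p = 0.0645 and 0.071). Of 10 T cell genes found 1 rose and 0 fell (0 also at an unadjusted p under 0.05 by limma), with a summed level of 64.1 and 25.9 FPKM with bleomycin and 52 and 50.8 FPKM with PBS. None of these genes was at 0 in all libraries. The gene that rose was Foxp3, the factor of regulatory T cells, at 1.94 and 1.4 FPKM with bleomycin and 0.4 and 0.34 FPKM with PBS (limma adjusted p = 0.0284). Of 10 tested B and plasma cell genes 1 rose and 0 fell, with 1 lower at an unadjusted p under 0.05 by limma. Their median log2 change was -0.50. The gene that rose was Sdc1, which epithelium makes too. Cd79a was at 16.35 and 2.34 FPKM with bleomycin and 13.25 and 12.94 FPKM with PBS. The part of these cells in the values of Batf3, Irf4, Irf8, Itgae and Cd209a was not tested.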

How the data were processed

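Whole-lung RNA from 2 bleomycin and 2 PBS libraries was analysed. The deposited table holds FPKM made by the authors, written to 2 decimals; Bowtie2, HISAT, mm10 and GRCm38 are named, without versions or roles, in the submitters' processing notes, and the sequencer (BGISEQ-500) in the design text. How fragments shared by overlapping genes were counted is not given in the sources used here. Of 17692 rows, 1 without a name was left out (at most 0.0009% of a library's summed FPKM), and 27 symbols turned into dates were restored. The rescaling by length and depth means that a change in a few abundant genes can move all others.

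The 12986 genes averaging 1 FPKM or more over the libraries entered the test. Values were transformed to log2 after adding 1 and fitted by limma 3.58.1 under R 4.3.3 (eBayes with a trend, group as the only term, two-sided, Benjamini-Hochberg adjustment over all tested genes, threshold 0.05). The pseudocount of 1 understates changes of low genes. The fit had 2 residual degrees of freedom and 2.76 prior ones. Ratios within a library were compared by exact permutation (scipy 1.17.1). Depth was estimated from steps in low values, of which 75.0% to 78.1% lay within 0.15 of a whole fragment, too few to recover counts, so the 95% Poisson intervals are approximate and cover counting error only. Promoters and locations are from RefSeq (GRCm38.p6).

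The members and the 18 gene lists (191 of 192 entries in the table) were chosen with earlier results of these data known. All members are named. Of each other list, up to 4 called genes with the largest changes are named, or up to 3 with the highest means, and any gene of the partner, IRF and BATF, and DC-SIGN lists. Alternatives were other pseudocounts, filters, scalings, no trend, a replicate block and each library left out, and, added after seeing the data, other pan-leukocyte genes in place of Ptprc.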

Additional observations from a re-analysis of the deposited data

How the results depend on the processing

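Limma called 1116 genes higher and 998 lower. Leaving out each library in turn gave 0 to 2402 higher and 0 to 3144 lower over all tested genes, and 0 to 3 higher and 0 to 7 lower among the members. With either PBS library out limma called 0 genes, with 1120 and 1143 higher and 1007 and 1059 lower at an unadjusted p under 0.05, and the lone PBS library is assumed to vary as the bleomycin pair did. Without the filter on low values 0 members were called higher. Batf3 stayed higher throughout, at 1.13 to 1.86 with a library left out. Xcr1 ran from -0.59 to 0.06, Flt3 from -0.43 to 0.42, Itgae from -0.49 to 0.62, Irf4 from -0.75 to 0.17 and Irf8 from -0.53 to 0.42 in the same fits. Flt3 was also 0.05 after quantile normalization, 0.02 as TPM and 0.00 after upper quartile scaling, and Irf8 0.01 as TPM. The log2 ratio of the cDC1 to the cDC2 sum (-0.14) ran from -0.53 to 0.17, and that of Irf8 to Irf4 (0.62) from 0.16 to 0.96. The cause of these shifts was not tested. With the replicate number as a block, 842 genes were higher and 799 lower, with 1 and 0 members. Same-numbered libraries did not deviate together over all tested genes (correlation 0.0231), but 2 libraries a group cannot settle whether the numbers pair them. With 2 libraries a group, members near 1 FPKM are limited by both fragment number and replicate spread.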

Other observations

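Some marker lists outside the dendritic cells differed in other ways between the groups. Of 6 neutrophil genes 3 fell, 0 rose (0 also at an unadjusted p under 0.05 by limma) and 3 did not pass, with a summed level of 193 and 155 FPKM with bleomycin and 383 and 512 FPKM with PBS. S100a8, a calcium-binding protein abundant in neutrophils, was at 72.37 and 68.49 FPKM with bleomycin and 155.41 and 214.38 FPKM with PBS (limma adjusted p = 0.0142). Of 8 genes listed for alveolar macrophages 2 fell, Krt79 and Car4, and 0 rose, with 2 higher at an unadjusted p under 0.05 by limma. The part of other cells, such as the endothelium, in the Krt79 and Car4 values was not tested. Marco, a scavenger receptor named after its values were seen, was at 11.7 and 64.22 FPKM with bleomycin and 6.24 and 6.04 FPKM with PBS, higher in replicate 2, the library in which 8 of the 9 dendritic cell genes were lower. Of 4 tested NK cell genes 0 passed, with 2 lower at an unadjusted p under 0.05 by limma, and Gzma, a granule protease, was at 7.63 and 0.64 FPKM with bleomycin and 26.92 and 17.18 FPKM with PBS (limma adjusted p = 0.0961). Of 9 lung genes 1 rose, Sftpd, which encodes a surfactant protein, and 0 fell, with 2 lower at an unadjusted p under 0.05 by limma. Among these was Scgb1a1, a secretory protein of club cells, which averaged 19304 ± 632 FPKM with bleomycin and 47790 ± 9369 FPKM with PBS (SD, n = 2 each; limma adjusted p = 0.131).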
